A study of Homo sapiens with 12 samples.

Results

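The mitochondrial ribosome is assembled from proteins made in the cytosol and ribosomal RNAs made inside the mitochondrion, and it translates the few messages of the mitochondrial genome, all of them for subunits of the respiratory chain and ATP synthase. Its large subunit holds the peptidyl transferase centre and the exit tunnel, and its small subunit holds the decoding centre. The genes for its proteins lie on nuclear chromosomes and carry the symbols MRPL (large subunit) and MRPS (small subunit). The protein-coding genes whose symbol is MRPL or MRPS followed by a number were taken from the deposited count table. This rule uses no measured value, though it was set with earlier results of these data known. The rule gave 78 genes of the 78930 read, 49 MRPL and 29 MRPS, spread over 21 chromosomes. A further 87 identifiers with such a symbol were pseudogenes, antisense or divergent transcripts and were left out. All 78 genes passed the filter on low counts, with 24064 genes tested in all, and the lowest count of any of them in any library was 238.

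The names do not follow the structures in every case. MRPS30 and MRPS18A sit in the large subunit in published structures of the ribosome, and MRPS36 is a component of the alpha-ketoglutarate dehydrogenase complex and no part of the ribosome. All 3 were kept under their symbols here. Of the 78 genes, 46 encode homologues of bacterial ribosomal proteins and 31 encode proteins with no bacterial counterpart at their place in the ribosome, a class that includes MRPS18A and MRPS18B, paralogues of the bacterial homologue MRPS18C.

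The cells were OCI-AML3, an established leukaemia cell line with mutant, cytoplasmic NPM1 (NPM1c), modified so that the NPM1c protein is tagged for degradation by the small molecule dTAG-13. Cells were transduced with lentivirus, treated 48 h later with 500 nM dTAG-13 or with DMSO, and sorted for mCherry 24 h after that. The 4 groups had 3 libraries each: NTC_DMSO, titled as DMSO-treated, whose labels give neither a construct nor what NTC stands for and whose treatment label nevertheless reads dTAG; dTAG_mCherry, dTAG-13 with mCherry alone; dTAG_FL-NPM1c, dTAG-13 with full-length NPM1c; and dTAG_Cbodynull, dTAG-13 with an NPM1c variant labelled as C-body null. All groups carry the degron, so none is an unmodified parental line, and no label says whether the line is a single clone or whether the 3 libraries of a group came from separate cultures. The p-values therefore measure the spread between these libraries, which may be technical. NTC_DMSO differs from the dTAG groups in both the compound and the named construct, and these cannot be told apart in a comparison with it.

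Library totals ran from 30519165 to 59925564 counts, and the 78 genes together took 0.411% to 0.463% of them. Levels are given as CPM, the count of a gene scaled to a common library size. NPM1 RNA stood at 1608 to 1937 CPM in the groups given an NPM1c construct and at 1059 to 1515 CPM in the others. RNA does not report on degradation of the protein. The marker lists of T and NK, B and plasma, erythroid and megakaryocyte, and epithelial and fibroblast cells each summed to at most 1.77 CPM in any library, with CD3D, CD3E, CD2, HBB and EPCAM at 0 counts in all 12. The 6 monocyte markers summed to 337 to 378 CPM in NTC_DMSO and to 2670 to 4359 CPM in the dTAG groups, and the 6 general myeloid markers to 358 to 413 and 496 to 651 CPM. All 6 monocyte markers were called higher than NTC_DMSO in dTAG_mCherry and dTAG_Cbodynull and 5 in dTAG_FL-NPM1c, and in dTAG_FL-NPM1c 5 were lower than in dTAG_Cbodynull and 3 lower than in dTAG_mCherry. These differences move with the comparisons below, and their part in them was not tested. In bulk RNA fewer cells of a type and less RNA per cell cannot be told apart.

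Per kilobase of transcript, the members spanned 4.52 to 243 CPM, with a median of 30.6 for large-subunit genes and 34.4 for small-subunit genes. The most abundant large-subunit transcripts on this scale were those of MRPL33 (243 CPM per kb), MRPL20 (130) and MRPL36 (100.1), all homologues of bacterial ribosomal proteins. The lowest were MRPL42 (4.52), MRPL41 (8.68) and MRPL55 (9.33). The principal transcript of MRPL42 is annotated with 15582 bases, and the gene stood at 70.4 CPM before division by length. In the small subunit MRPS7, which neighbours the ribosomal RNA of the head in bacterial ribosomes, was highest at 83.3 CPM per kb, followed by MRPS22 (70.4) and MRPS24 (67.7), and MRPS31 (7.43), MRPS11 (7.58) and MRPS23 (10.0) were lowest. With the length of all annotated exons in place of the principal transcript, 19 of the 78 ranks moved by more than 20 places, so this order depends on the annotation.

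**Figure D1:**
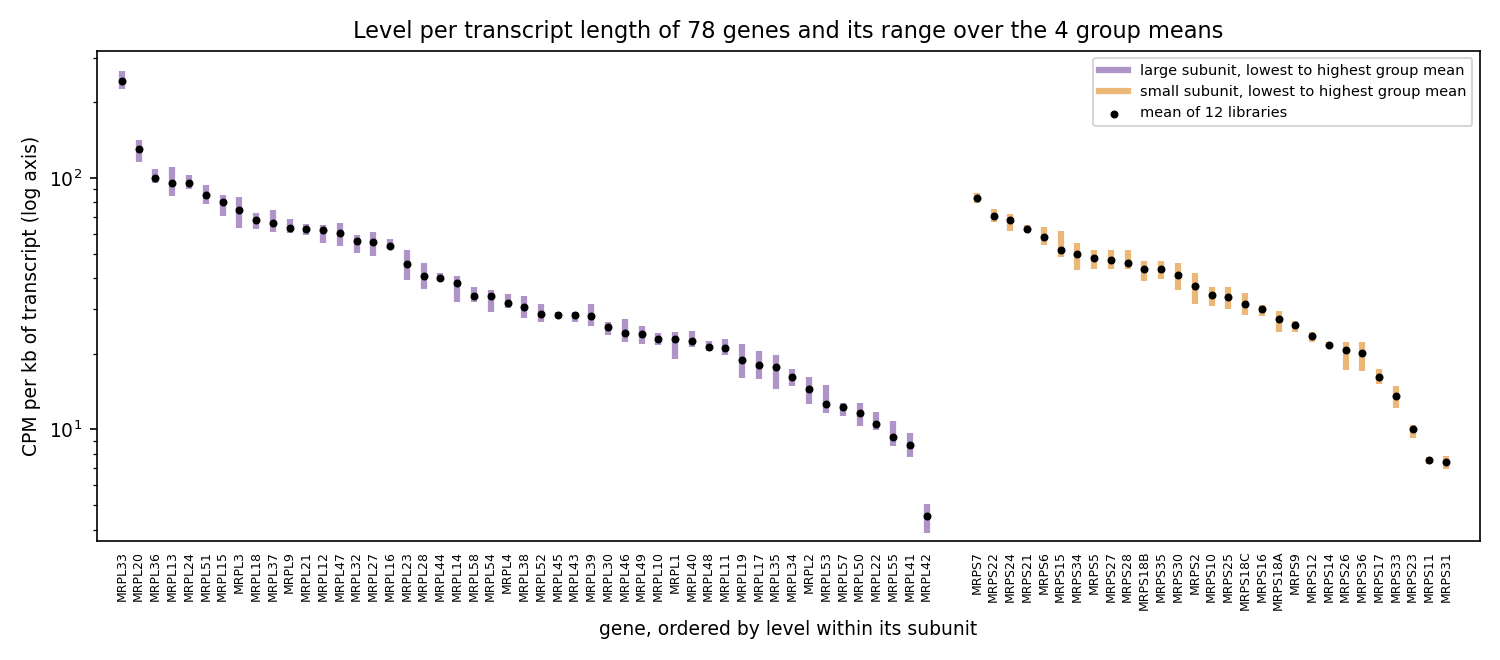
Level per kilobase of transcript (CPM per kb, log axis) of the 78 genes, ordered within the large and the small subunit; points are means of 12 libraries and bars run from the lowest to the highest of the 4 group means. Levels span 4.52 to 243 CPM per kb between genes, while the bar of a single gene covers at most a 1.36-fold range.

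Each gene held nearly the same level in all groups. The ratio of the highest to the lowest group mean was 1.05 to 1.36 over the 78 genes, with a median of 1.19. MRPL45, which anchors the ribosome to the inner membrane, was among the least variable, at 48.9 ± 3.13 CPM in NTC_DMSO, 48.7 ± 5.36 in dTAG_mCherry, 49.9 ± 1.18 in dTAG_Cbodynull and 47.6 ± 2.74 in dTAG_FL-NPM1c (mean ± SD, n = 3). MRPL19 and MRPL35 varied most, both 1.36-fold. The order of the groups was uneven: 42 genes had their highest mean in NTC_DMSO, 17 in dTAG_Cbodynull, 13 in dTAG_FL-NPM1c and 6 in dTAG_mCherry, and the lowest mean fell in dTAG_FL-NPM1c for 37 genes and in dTAG_mCherry for 26.

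Summed over the 49 large-subunit genes, the level was 2749 ± 86.8 CPM in NTC_DMSO, 2551 ± 141 in dTAG_mCherry, 2591 ± 85.0 in dTAG_Cbodynull and 2482 ± 88.9 in dTAG_FL-NPM1c (mean ± SD, n = 3). Summed over the 29 small-subunit genes it was 1854 ± 49.2, 1772 ± 85.4, 1798 ± 34.9 and 1702 ± 37.9 CPM in the same order. In both sums each NTC_DMSO library lay above each dTAG_FL-NPM1c library. The dTAG_mCherry libraries lay below NTC_DMSO in the large-subunit sum and overlapped it in the small, and those of dTAG_Cbodynull overlapped NTC_DMSO in both. The small-subunit sum did not overlap between the 2 NPM1c constructs. The ratio of the sums, large over small, was 1.48 in NTC_DMSO (range 1.476 to 1.491) and 1.44 in dTAG_mCherry, 1.44 in dTAG_Cbodynull and 1.46 in dTAG_FL-NPM1c (range over these 9 libraries 1.417 to 1.472).

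**Figure D2:**
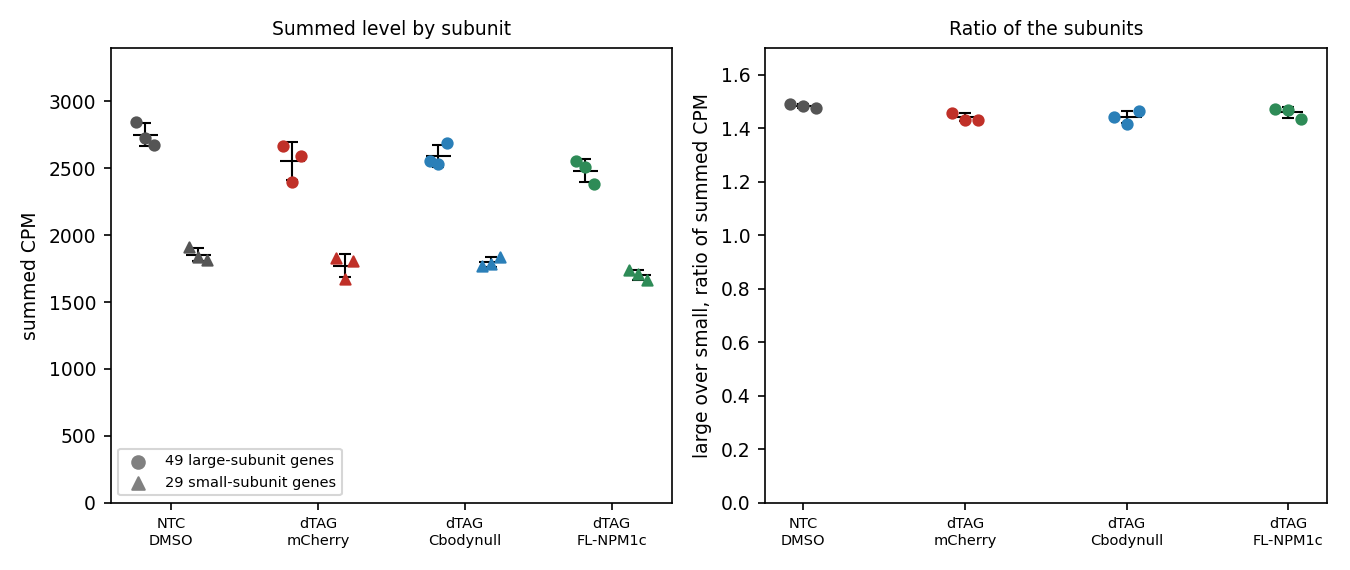
Left, summed CPM of the 49 large-subunit (circles) and 29 small-subunit genes (triangles) in each of 12 libraries; right, the ratio of the 2 sums; black bars are the mean and SD of 3 libraries. The sums are lowest in dTAG_FL-NPM1c and the ratio lies between 1.417 and 1.491 in all libraries.

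The first of the 6 comparisons set dTAG-13 with mCherry alone against NTC_DMSO (dTAG_mCherry against NTC_DMSO). The others set each construct against dTAG_mCherry, the constructs against each other, and each construct against NTC_DMSO. A gene was called where edgeR's quasi-likelihood test over all 24064 genes gave a Benjamini-Hochberg adjusted p under 0.05. Of the 78 genes 24 were called in at least 1 comparison and 54 in none. None of the 78 was called higher than NTC_DMSO in any dTAG group. Lower calls fell on 19 in at least 1 dTAG group, and on MRPS15 and MRPL37 in all 3. Counts over several comparisons were not taken for all genes, so no share stands beside them. In the single comparisons with NTC_DMSO, 9.69% (dTAG_mCherry), 12.4% (dTAG_Cbodynull) and 13.3% (dTAG_FL-NPM1c) of all genes were called lower. Called higher were 12.9%, 14.1% and 14.6% in the same order. The 3 comparisons share the NTC_DMSO libraries, so they are not independent of each other.

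MRPS15, the homologue of a bacterial protein that binds the small ribosomal RNA early in assembly, lies at chr1:36455718-36464437 (hg38, minus strand). It stood at 63.5, 58.9 and 62.7 CPM in the 3 NTC_DMSO libraries and at 52.4, 43.9 and 50.7 CPM in dTAG_mCherry. The values were 47.5, 48.7 and 49.9 CPM in dTAG_Cbodynull and 51.7, 47.6 and 46.5 CPM in dTAG_FL-NPM1c. All 9 dTAG libraries lay below all 3 NTC_DMSO libraries, and the 3 dTAG groups overlapped one another. Relative to NTC_DMSO the log2 fold change was -0.33 ± 0.08 (SE) in dTAG_mCherry (adjusted p = 0.00756). It was -0.34 ± 0.08 in dTAG_Cbodynull (adjusted p = 0.00536) and -0.34 ± 0.08 in dTAG_FL-NPM1c (adjusted p = 0.00554). Leaving out any single library kept the gene under the threshold in each of the 3 comparisons. With the dTAG_mCherry and NTC_DMSO libraries fitted alone the adjusted p was 0.0736.

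MRPL37, a large-subunit protein with no bacterial counterpart, lies at chr1:54184041-54225464 (plus strand). It stood at 110.0, 109.5 and 111 CPM in NTC_DMSO and at 90.2, 89.1 and 91.8 CPM in dTAG_mCherry. The values were 93.6, 90.2 and 99.5 CPM in dTAG_Cbodynull and 99.1, 95.5 and 95.7 CPM in dTAG_FL-NPM1c. The NTC_DMSO libraries were close to each other and all 9 others lay below them. The log2 fold changes against NTC_DMSO were -0.29 ± 0.07 in dTAG_mCherry (adjusted p = 0.00539), -0.22 ± 0.07 in dTAG_Cbodynull (adjusted p = 0.022) and -0.19 ± 0.07 in dTAG_FL-NPM1c (adjusted p = 0.0481). For dTAG_Cbodynull, the call was lost without NTC_DMSO replicate 1 or 2 or dTAG_Cbodynull replicate 1 or 2, and the 6 fits without 1 library gave adjusted p from 0.0321 to 0.119. In dTAG_FL-NPM1c the call was lost in at least 1 fit without 1 library. The dTAG_mCherry and NTC_DMSO libraries fitted alone gave an adjusted p of 0.0762.

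The 250 bases before the start are printed for MRPL37 and MRPS15, called in all 3 comparisons with NTC_DMSO, and for MRPL20 and MRPL27, which fell in dTAG_mCherry and hold a pair of ETS cores each. They come from RefSeq (GRCh38.p14). Capitals mark matches to short motifs: the E-box in MRPL37 (chr1:54199917-54200166, plus strand), the TATA letters and then the SP1 box in MRPS15 (chr1:36464385-36464634, minus strand), both on the opposite strand, and the ETS cores in MRPL20 (chr1:1407294-1407543, minus strand) and MRPL27 (chr17:50373185-50373434, minus strand). The RefSeq start of MRPL37 lies inside the longer span that GENCODE 29 gives the gene.
MRPL37: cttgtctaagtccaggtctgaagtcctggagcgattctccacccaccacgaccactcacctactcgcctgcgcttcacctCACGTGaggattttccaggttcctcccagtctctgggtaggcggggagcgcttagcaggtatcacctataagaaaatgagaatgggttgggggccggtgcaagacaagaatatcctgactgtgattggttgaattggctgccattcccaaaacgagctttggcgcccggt
MRPS15: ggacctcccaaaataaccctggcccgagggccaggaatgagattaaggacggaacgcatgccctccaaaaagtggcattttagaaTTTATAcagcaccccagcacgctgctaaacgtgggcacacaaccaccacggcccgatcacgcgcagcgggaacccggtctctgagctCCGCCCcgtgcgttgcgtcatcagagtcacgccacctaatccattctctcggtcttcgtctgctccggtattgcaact
MRPL20: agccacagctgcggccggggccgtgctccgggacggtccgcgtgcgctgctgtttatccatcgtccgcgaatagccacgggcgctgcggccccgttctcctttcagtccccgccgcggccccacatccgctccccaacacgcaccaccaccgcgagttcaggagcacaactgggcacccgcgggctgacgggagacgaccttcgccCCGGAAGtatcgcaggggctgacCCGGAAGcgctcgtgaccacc
MRPL27: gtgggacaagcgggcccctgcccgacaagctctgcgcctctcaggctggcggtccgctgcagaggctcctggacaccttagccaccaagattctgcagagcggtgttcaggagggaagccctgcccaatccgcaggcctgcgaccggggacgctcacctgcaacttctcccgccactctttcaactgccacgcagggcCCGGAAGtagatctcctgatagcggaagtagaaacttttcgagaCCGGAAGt

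RefSeq promoter windows (GRCh38.p14, 250 bases before to 50 after the start) were at hand for 69 of the 78 genes and were searched on both strands. The core bound by ETS factors such as GABPA, CCGGAAG, was found in 29 of the 69 (42.0%) and in 10.7% of all 27303 promoters of that length. The YY1 element was found in 10 (14.5%), against 0.916% of all promoters, and the SP1 box GGGCGG in 42 (60.9%), against 44.6%. The full palindrome of NRF1 was in 1 member (MRPL17) and in 1.36% of all promoters, the E-box CACGTG in 6 (8.70%) and 7.44%, and the TATA letters TATAAA in 2 (2.90%) and 12.0%. The ETS core was in 17 of 42 large-subunit and 12 of 27 small-subunit promoters. Of the 15 promoters of genes called lower than NTC_DMSO in any comparison 6 held it, and of the other 54, 23 did. The 27303 promoters were not limited to protein-coding genes or to genes expressed in these cells, whereas all members are both. The shares are therefore not set against promoters of like genes. A match is a run of letters in a window and not a measured binding site. None of the motifs searched overlaps another in the windows printed here.

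**Figure D3:**
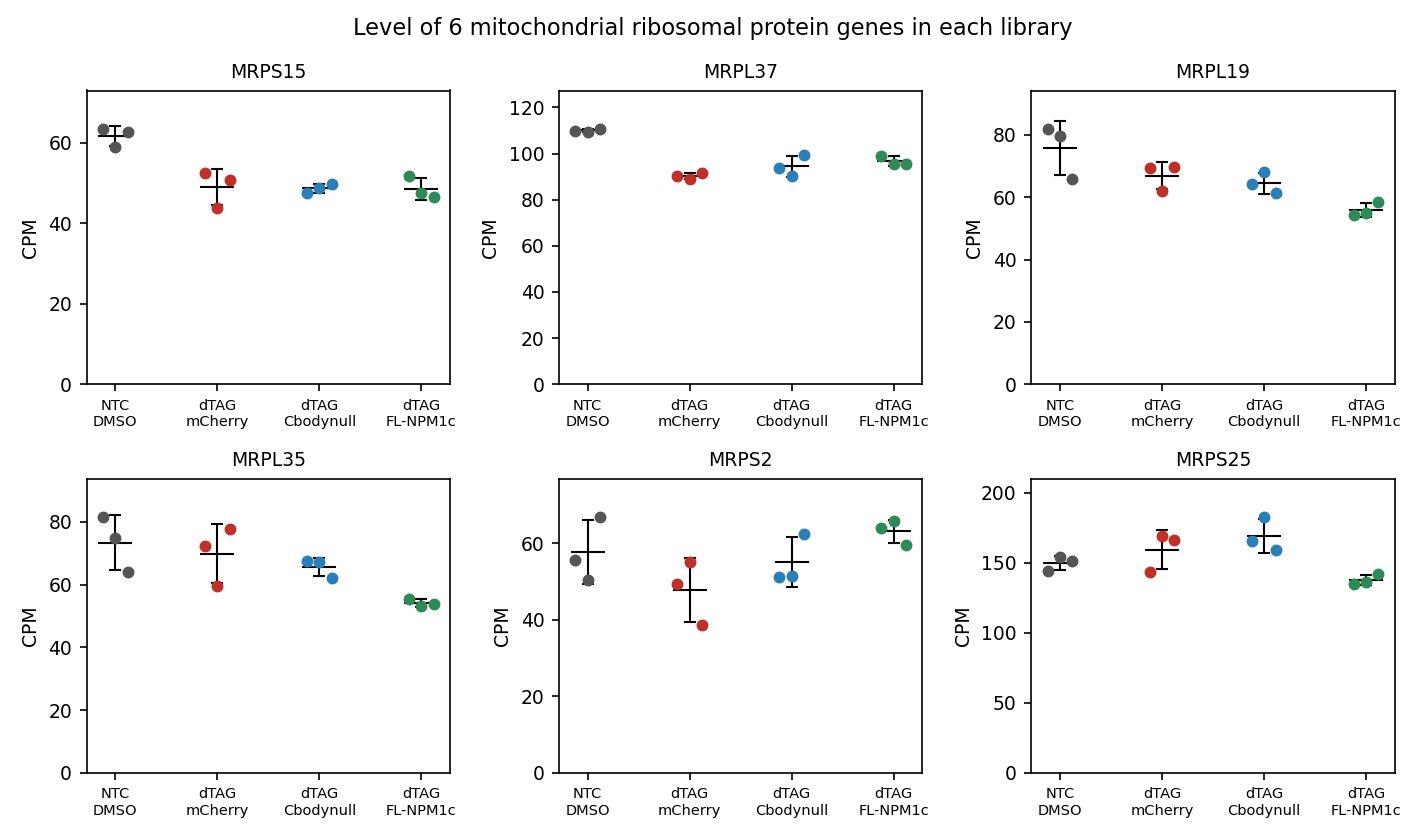
CPM of MRPS15, MRPL37, MRPL19, MRPL35, MRPS2 and MRPS25 in each library (points) with the mean and SD of 3 libraries (black). MRPS15 and MRPL37 are lower in all 9 dTAG libraries than in NTC_DMSO, MRPL19 and MRPL35 are lowest in dTAG_FL-NPM1c, and MRPS2 and MRPL35 differ widely between the dTAG_mCherry libraries.

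In dTAG_mCherry against NTC_DMSO, 7 of the 78 genes fell and 0 rose, where 9.69% of all genes tested were called lower and 12.9% higher. Before adjustment 18 were lower and 1 higher at p under 0.05. Of all 24064 genes, 3848 were lower and 4489 higher at that threshold, 34.6% together. The groups did not overlap for 16 lower genes and 1 higher, where 14.3% and 17.8% of all genes did not. The genes that fell were MRPS15, MRPL37, MRPL20, MRPL27, MRPL46, MRPL17 and the small-subunit gene MRPS27. MRPL20, whose bacterial homologue is an early assembly protein of the large subunit, stood at 99.99, 102 and 104 CPM in NTC_DMSO and 84.7, 82.8 and 82.6 CPM in dTAG_mCherry, without overlap (log2 fold change -0.29 ± 0.07, adjusted p = 0.00652). MRPS27, a pentatricopeptide repeat protein, fell from 144, 146 and 140.3 CPM to 122, 115 and 125 CPM (log2 fold change -0.25 ± 0.07, adjusted p = 0.0108). MRPL27, the homologue of a bacterial protein at the peptidyl transferase centre, fell by 0.30 on the log2 scale (SE 0.09, adjusted p = 0.0264), and MRPL46, which has no bacterial counterpart, by 0.30 (adjusted p = 0.0212). MRPL17, near the exit tunnel in bacteria, had an adjusted p of 0.0499. MRPS15, MRPL37 and MRPL20 were called in each of the 6 fits that left out 1 library, and the other 4 lost the call in at least 1. With the 6 libraries of these groups fitted alone, 0 of the 78 were called, where 5.12% of all genes were called lower and 9.81% higher. Over all 78 genes the median log2 fold change was -0.09, where all genes tested had -0.00, and 64 of the 78 had a fold below 0. Without dTAG_mCherry replicate 2 the count was 12 lower and 3 higher, where 11.5% and 12.5% of all genes were called.

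In dTAG_FL-NPM1c against NTC_DMSO, 16 of the 78 genes fell and 0 rose, where 13.3% of all genes were called lower and 14.6% higher. In either direction 27.9% of all genes were called. Before adjustment 29 were lower and 2 higher at p under 0.05. Of all 24064 genes, 4543 were lower and 4955 higher at that threshold, 39.5% together. The groups did not overlap for 36 lower genes and 2 higher, where 20.3% and 23.2% of all genes did not. Of the 16, 13 carry MRPL symbols and 3 carry MRPS symbols, among them MRPS36, which is no part of the ribosome. MRPL19, which sits at the interface between the subunits in bacteria, had the largest fitted change: 81.9, 79.5 and 65.7 CPM in NTC_DMSO and 54.2, 54.8 and 58.4 CPM in dTAG_FL-NPM1c, without overlap (log2 fold change -0.44 ± 0.09, adjusted p = 0.00199). MRPL35, another protein with a bacterial homologue, stood at 81.5, 74.8 and 63.9 CPM against 55.4, 53.2 and 53.9 CPM (log2 fold change -0.44 ± 0.10, adjusted p = 0.00466). MRPL3, whose bacterial homologue reaches the peptidyl transferase centre, stood at 156, 147 and 128 CPM against 110.2, 107 and 107 CPM (log2 fold change -0.41 ± 0.09, adjusted p = 0.00395). In each of these 3 genes NTC_DMSO replicate 3 was the lowest of its group. With the GC offset described below their log2 fold changes were smaller, -0.19, -0.21 and -0.24, and that of MRPS15 (-0.40) was larger than all 3. Without the offset the next were MRPL13 (-0.39 ± 0.12), MRPL42 (-0.39 ± 0.11) and MRPS36 (-0.38 ± 0.11), all log2 fold changes with SE. The others called were MRPL1, MRPL15, MRPL17, MRPL18, MRPL37, MRPL46, MRPL47, MRPL51, MRPS15 and MRPS18C, with log2 fold changes from -0.37 to -0.19. The median of all 78 was -0.14, beside 0.02 for all genes tested. MRPL3, MRPL17, MRPL19, MRPL35 and MRPS15 kept their calls in all 6 fits without 1 library. The genes called lower numbered 5 without NTC_DMSO replicate 1 or dTAG_FL-NPM1c replicate 2, where 7.28% and 7.83% of all genes were called lower, and 6 without NTC_DMSO replicate 2 (8.43%). They numbered 7, with 2 higher, without dTAG_FL-NPM1c replicate 3 (11.0% lower and 12.4% higher) and 23 without NTC_DMSO replicate 3 (15.7%). Fitted alone, the 6 libraries gave 27 lower and 1 higher, where 17.6% and 15.6% of all genes were called.

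In dTAG_Cbodynull against NTC_DMSO, MRPL13, MRPS15 and MRPL37 fell and 0 rose, where 12.4% of all genes were called lower and 14.1% higher. Before adjustment 9 were lower and 2 higher at p under 0.05. Of all 24064 genes, 4328 were lower and 4609 higher at that threshold, 37.1% together. MRPL13 stood at 132, 120.4 and 108 CPM in NTC_DMSO and 91.7, 96.1 and 96.8 CPM in dTAG_Cbodynull (log2 fold change -0.34 ± 0.12, adjusted p = 0.0394), and leaving out single libraries gave adjusted p from 0.017 to 0.167. The median of the 78 was -0.07, beside -0.00 for all genes. The same-numbered libraries of these 2 groups deviated together, but the labels state no pairing. Some libraries of unlike number in other pairs of groups correlated more strongly. A fit of the 2 groups alone with the replicate number as a block called 23 genes lower and 3 higher. In that fit 21.2% and 19.9% of all genes were called. Without the block those libraries gave 5 lower (14.3% of all genes). Leaving out NTC_DMSO replicate 3 from the fit of all groups gave 9 lower, where 14.3% of all genes were called lower, and leaving out NTC_DMSO replicate 1 or 2, or dTAG_Cbodynull replicate 1 or 2, gave 1, where 8.13% to 9.00% were. Of the genes with the next smallest p, none of which passed, MRPS27 had a log2 fold change of -0.17 ± 0.07, MRPL39 -0.29 ± 0.11 and MRPL19 -0.23 ± 0.09.

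**Figure D4:**
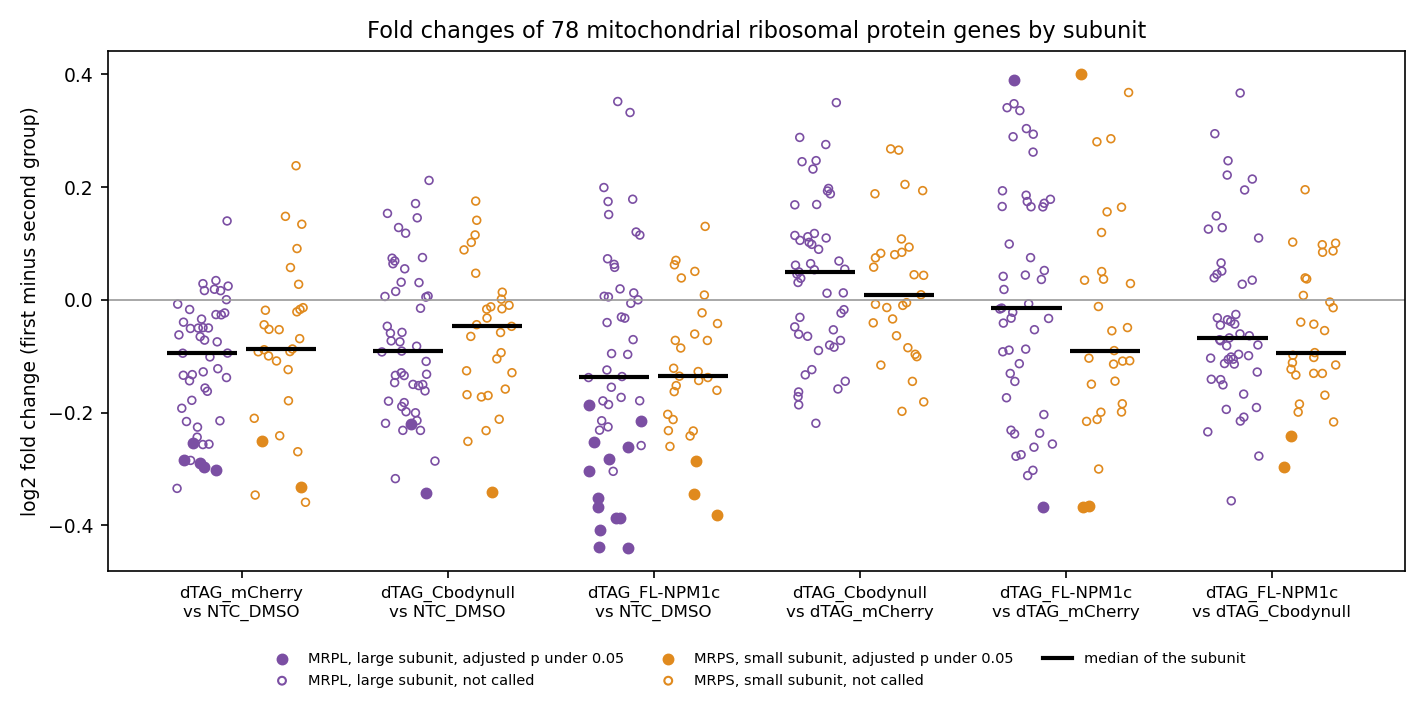
Log2 fold change of each of the 78 genes in the 6 comparisons, large subunit in purple and small subunit in orange; filled points have an adjusted p under 0.05 and black bars are medians. All filled points of the 3 comparisons with NTC_DMSO lie below 0, and no point in any comparison exceeds 0.44 in size.

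In dTAG_FL-NPM1c against dTAG_mCherry, MRPS2 and MRPL23 rose and MRPL35, MRPS36 and MRPS30 fell, where 7.58% of all genes were called higher and 7.95% lower. MRPS2, whose bacterial homologue joins the small subunit late, stood at 49.3, 55.3 and 38.7 CPM in dTAG_mCherry and 63.9, 65.8 and 59.7 CPM in dTAG_FL-NPM1c (log2 fold change 0.40 ± 0.13, adjusted p = 0.0417). MRPL23, at the exit of the tunnel, stood at 30.0, 32.8 and 24.1 against 40.03, 39.1 and 35.1 CPM (log2 fold change 0.39 ± 0.13, adjusted p = 0.0495). MRPL35 stood at 72.3, 59.7 and 77.8 against 55.4, 53.2 and 53.9 CPM (log2 fold change -0.37 ± 0.10, adjusted p = 0.0241). The groups did not overlap in these genes, but within dTAG_mCherry replicate 2 was the highest library for MRPS2 and MRPL23 and the lowest for MRPL35. MRPS36 stood at 31.6, 23.1 and 30.3 against 22.5, 21.2 and 22.1 CPM (log2 fold change -0.37 ± 0.11, adjusted p = 0.0345) and MRPS30 at 82.0, 66.8 and 83.0 against 56.2, 62.0 and 61.6 CPM (-0.37 ± 0.10, adjusted p = 0.0247). The median of the 78 was -0.03, beside -0.00 for all genes, and it was 0.0083 without dTAG_FL-NPM1c replicate 3. None of the 5 calls held in all 6 fits that left out 1 library. Without dTAG_mCherry replicate 2, 13 genes were called higher and 20 lower, where 14.8% and 13% of all genes were called. Without dTAG_FL-NPM1c replicate 1 or 2, or dTAG_mCherry replicate 3, the count was 0, where 3.69% to 4.63% of all genes were called lower and 2.84% to 3.33% higher. Without dTAG_mCherry replicate 1 it was 1 lower (5.61% of all genes), and without dTAG_FL-NPM1c replicate 3 it was 1 lower and 1 higher (6.08% and 5.65%). The uncalled gene with the smallest p was MRPL3 (log2 fold change -0.27 ± 0.09).

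In dTAG_Cbodynull against dTAG_mCherry, 0 of the 78 genes were called by edgeR, where 0.216% of all genes were called higher and 0.378% lower (0.594% together), and DESeq2 called 1 higher. Of the 78, 8 had an unadjusted p under 0.05, where 11.9% of all genes did. The smallest p belonged to MRPS18B, at 58.6, 61.1 and 59.2 CPM in dTAG_mCherry and 69.2, 72.1 and 74.1 CPM in dTAG_Cbodynull (log2 fold change 0.27 ± 0.07, adjusted p = 0.16). The next were MRPL2 (0.35 ± 0.11), a core protein of the peptidyl transferase centre in bacteria, MRPL49 (0.25 ± 0.08), MRPL20 (0.20 ± 0.07), MRPL27 (0.24 ± 0.09) and MRPL24 (0.19 ± 0.07), none of which passed the test. The groups did not overlap for 12 higher genes and 1 lower, where 7.36% and 7.6% of all genes did not. The median of the 78 was 0.04, beside -0.01 for all genes, and it was -0.0083 without dTAG_Cbodynull replicate 3. Without dTAG_mCherry replicate 2, 3 genes were called higher and 2 lower, where 3.1% and 2.6% of all genes were called.

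Between the constructs, dTAG_FL-NPM1c against dTAG_Cbodynull, the small-subunit genes MRPS25 and MRPS5 fell and 0 rose, where 4.86% of all genes were called lower and 4.82% higher. In either direction 9.68% of all genes were called. Before adjustment 8 were lower and 3 higher at p under 0.05. Of all 24064 genes, 2828 were lower and 3072 higher at that threshold, 24.5% together. MRPS25, which has no bacterial counterpart and the highest CPM of the 78 (154 on average), stood at 165, 182 and 159 CPM in dTAG_Cbodynull and 135, 136 and 142 CPM in dTAG_FL-NPM1c (log2 fold change -0.30 ± 0.08, adjusted p = 0.0244). MRPS5, whose bacterial homologue bears on the accuracy of decoding, stood at 84.7, 85.0 and 85.8 against 72.4, 72.5 and 71.1 CPM (log2 fold change -0.24 ± 0.07, adjusted p = 0.0255). Neither pair of groups overlapped. In NTC_DMSO MRPS25 stood at 144, 154 and 151 CPM and MRPS5 at 77.7, 79.5 and 78.7 CPM, between the constructs in both cases. Across the 6 fits without 1 library the adjusted p ran from 0.0169 to 0.107 for MRPS25 and from 0.0488 to 0.0948 for MRPS5, and only the fit without dTAG_Cbodynull replicate 3 kept both. The count was 0 without dTAG_Cbodynull replicate 1 or 2 or dTAG_FL-NPM1c replicate 1 or 2, where 2.72% to 3.36% of all genes were called lower and 2.49% to 2.85% higher. It was 1 lower without dTAG_FL-NPM1c replicate 3 (3.72%) and 2 lower with 1 higher without dTAG_Cbodynull replicate 3 (5.11% and 3.62%). Fitted alone, the 6 libraries gave 10 lower and 1 higher, where 9.00% and 9.92% of all genes were called. Of the genes with the next smallest p, none of which passed, MRPL1 had a log2 fold change of -0.36 ± 0.12, MRPL35 -0.28 ± 0.10, MRPL53 0.37 ± 0.14 and MRPL36 0.19 ± 0.08. The median of the 78 was -0.07, beside 0.01 for all genes, and 27 genes were lower in all dTAG_FL-NPM1c libraries than in all dTAG_Cbodynull libraries, where 17.1% of all genes were.

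The medians of the large and the small subunit lay within 0.08 of each other in all 6 comparisons, and their difference was not tested. Against NTC_DMSO the median log2 fold change of the large subunit and of the small was -0.09 and -0.09 in dTAG_mCherry, -0.09 and -0.05 in dTAG_Cbodynull, and -0.14 and -0.14 in dTAG_FL-NPM1c. Against dTAG_mCherry the medians were -0.01 and -0.09 in dTAG_FL-NPM1c and 0.05 and 0.01 in dTAG_Cbodynull, and between the constructs they were -0.07 and -0.09. With the GC offset the large minus small difference turned from 0.08 to -0.0097 in dTAG_FL-NPM1c against dTAG_mCherry and from 0.04 to -0.03 in dTAG_Cbodynull against dTAG_mCherry. The typical SE of a single gene was 0.09. In this split by symbol, calls against NTC_DMSO fell on 13 of 49 MRPL and 3 of 29 MRPS genes in dTAG_FL-NPM1c, and the 3 include MRPS36. They fell on 5 and 2 in dTAG_mCherry and on 2 and 1 in dTAG_Cbodynull. Genes with a bacterial homologue had medians of -0.09, -0.06 and -0.14 against NTC_DMSO in dTAG_mCherry, dTAG_Cbodynull and dTAG_FL-NPM1c, and genes with no bacterial counterpart at their place had -0.09, -0.13 and -0.09.

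Other genes were chosen for the role of their product. MRPL12 and MRPL10 of the stalk that recruits elongation factors, and MRPL11 at its base, were called in none of the 6 comparisons, with log2 fold changes in dTAG_FL-NPM1c against NTC_DMSO of -0.03 ± 0.11, 0.11 ± 0.08 and -0.17 ± 0.08. MRPL12 stood at 65.6, 58.9 and 74.4 CPM in NTC_DMSO and 58.4, 65.2 and 46.2 CPM in dTAG_mCherry, overlapping. MRPS12, in the decoding centre, stood at 28.5, 27.1 and 30.3 CPM in NTC_DMSO and 31.4, 30.2 and 27.3 CPM in dTAG_FL-NPM1c (0.05 ± 0.13). MRPL58, a peptidyl-tRNA hydrolase that rescues stalled ribosomes, had 0.01 ± 0.08 in that comparison, MRPL44 with its ribonuclease-like fold -0.03 ± 0.08, and the membrane anchor MRPL45 -0.04 ± 0.09. MRPL4, whose bacterial homologue lines the exit tunnel, had 0.18 ± 0.13. MRPS7 (-0.14 ± 0.08), MRPS22 (-0.16 ± 0.10), MRPS28 (-0.21 ± 0.10) and MRPS34 (-0.06 ± 0.12), small-subunit genes in which mutations cause mitochondrial disease, did not pass in any comparison. Of the 3 paralogues named MRPS18, only MRPS18C was called by edgeR in any comparison, in dTAG_FL-NPM1c against NTC_DMSO (-0.29 ± 0.10, adjusted p = 0.0439), where MRPS18A had 0.07 ± 0.13 and MRPS18B -0.02 ± 0.07; the differences between paralogues were not tested.

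The members differ in base composition, from 35.0% GC in the transcript (MRPL50) to 71.9% (MRPL41) with a median of 49.6%. Several differences between groups and between libraries moved with it, though not all in the same direction. In dTAG_FL-NPM1c against dTAG_mCherry the 26 genes of lowest GC had a median log2 fold change of -0.21, the middle 26 had -0.04 and the 26 of highest GC had 0.18. All 3 genes that fell in that comparison lie among the 26 of lowest GC and both that rose among the 26 of highest. Libraries of a single group differed in the same way: in dTAG_mCherry, replicate 2 minus the mean of replicates 1 and 3 had medians of -0.33, -0.09 and 0.24 in the same 3 sets, and in NTC_DMSO replicate 3 minus the mean of 1 and 2 had -0.24, -0.02 and 0.20. Across the 78 genes Pearson's r with GC was 0.78 (Spearman 0.79) for the fold change and 0.79 (Spearman 0.82) for the dTAG_mCherry replicate difference, and across 9430 other protein-coding genes these were 0.60 (0.65) and 0.78 (0.77). In dTAG_mCherry against NTC_DMSO Pearson's r with GC was -0.40 in the 78 genes and 0.03 in the 9430 others. For dTAG_FL-NPM1c replicate 3 minus the mean of 1 and 2 it was -0.65 and -0.61. With log2 transcript length, r in the 78 genes was 0.52 for that difference and -0.48 for dTAG_Cbodynull replicate 3 minus the mean of 1 and 2. These are correlations across genes that share their libraries, so genes are not independent replicates. In dTAG_FL-NPM1c against NTC_DMSO the genes that fell numbered 9, 5 and 2 from the lowest to the highest GC set, whereas in dTAG_mCherry against NTC_DMSO they numbered 0, 4 and 3.

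**Figure D5:**
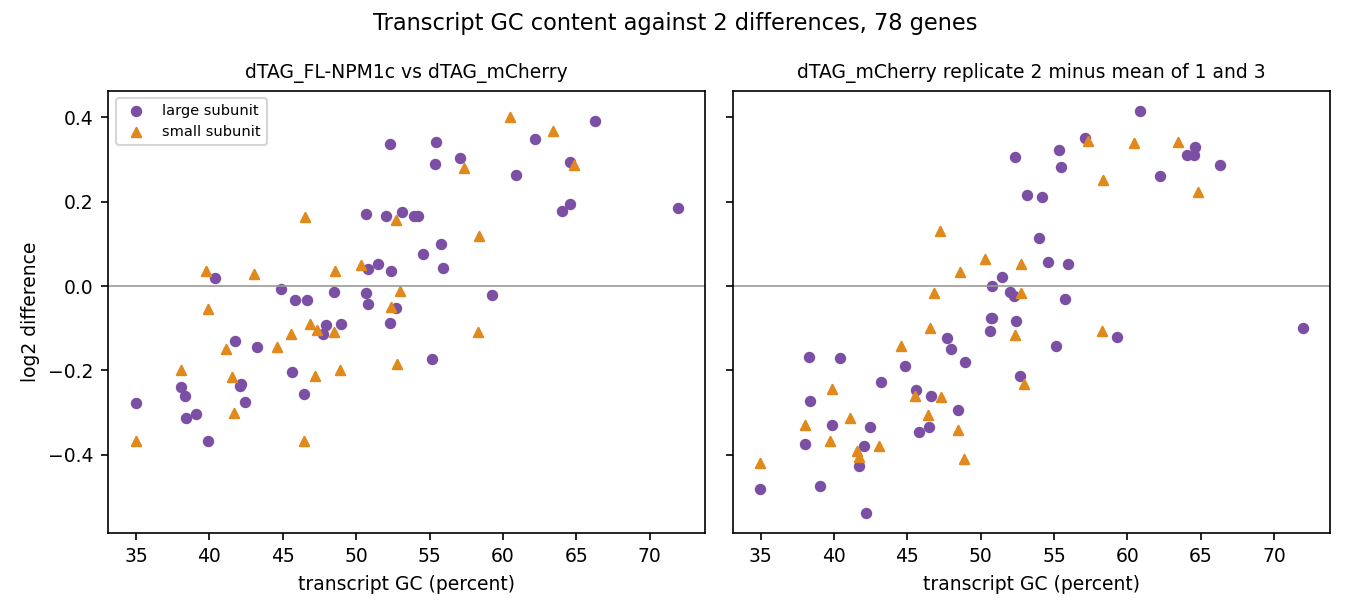
Log2 difference against GC percent of the transcript for 78 genes, large subunit as circles and small subunit as triangles; left, dTAG_FL-NPM1c against dTAG_mCherry, right, dTAG_mCherry replicate 2 minus the mean of replicates 1 and 3. Both differences climb from low to high GC, with r of 0.78 and 0.79.

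With the GC trend of each library entered as an offset, an alternative chosen after the data were seen, 20 genes were called lower and 1 higher in dTAG_mCherry against NTC_DMSO, where 15.8% and 18.5% of all genes were called, and all 7 genes named above were among them. In dTAG_FL-NPM1c against NTC_DMSO it called 25 lower and 0 higher (14.1% and 17.8% of all genes), 10 of the 16 among them; MRPL1, MRPL13, MRPL42, MRPL47, MRPS18C and MRPS36 lost the call. In dTAG_Cbodynull against NTC_DMSO it called 11 lower and 2 higher (16.3% and 18.7%), with MRPS15 at -0.40 and MRPL37 at -0.31 on the log2 scale and MRPL13 not called. In dTAG_FL-NPM1c against dTAG_mCherry it called 3 higher and 3 lower (10.1% and 10%), among them MRPS2 (0.19 on the log2 scale), MRPL35 (-0.18) and MRPS30 (-0.28), with smaller folds than without the offset, while MRPL23 and MRPS36 lost the call (adjusted p = 0.178 and 0.33). In dTAG_Cbodynull against dTAG_mCherry it called 2 higher and 0 lower (1.05% and 1.39%). Between the constructs it called 7 lower and 3 higher (8.95% and 9.49%), with MRPS25 and MRPS5 among the 7. The offset takes out any real difference between groups that runs with GC along with the rest.

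Other genes of mitochondrial translation were read from lists by role. Calls in these lists, and those of mitochondrial transcripts, cytosolic ribosomal proteins and regulators below, come from the main fit alone. They were not followed through the fits without 1 library or with the GC offset. Their counts stand beside the shares of all genes called lower and higher: 9.69% and 12.9% in dTAG_mCherry, 12.4% and 14.1% in dTAG_Cbodynull and 13.3% and 14.6% in dTAG_FL-NPM1c against NTC_DMSO, and 7.95% and 7.58% in dTAG_FL-NPM1c against dTAG_mCherry. Of 25 assembly factors of the ribosome, 4 fell and 0 rose in dTAG_mCherry against NTC_DMSO, led by the RNA helicase DHX30 (-0.42 ± 0.11), NGRN (-0.32 ± 0.07) and RBFA (-0.30 ± 0.09), which matures the small subunit (log2 fold change ± SE). In dTAG_FL-NPM1c against dTAG_mCherry 3 of them rose, DHX30 (0.40 ± 0.11), DDX28 (0.32 ± 0.09) and MRM3 (0.26 ± 0.09), and 0 fell. In dTAG_FL-NPM1c against NTC_DMSO 5 fell, led by MALSU1 (-0.38 ± 0.11), FASTKD2 (-0.36 ± 0.10) and METTL15 (-0.29 ± 0.09), and in dTAG_Cbodynull against NTC_DMSO 2 fell, MALSU1 (-0.50 ± 0.11) and NGRN (-0.24 ± 0.07). Of the 5 ribosomal proteins without MRPL or MRPS symbols only PTCD3, in dTAG_FL-NPM1c against dTAG_mCherry (-0.28 ± 0.08), was called in any comparison.

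Of 17 translation factors, MTRF1, a release factor, fell against NTC_DMSO in dTAG_mCherry (-0.40 ± 0.11), dTAG_Cbodynull (-0.47 ± 0.11) and dTAG_FL-NPM1c (-0.47 ± 0.11). In dTAG_FL-NPM1c 6 fell, among them the elongation factors GFM1 (-0.31 ± 0.09) and GFM2 (-0.31 ± 0.09), and in dTAG_Cbodynull the insertase gene OXA1L rose (0.19 ± 0.07). Of 17 mitochondrial aminoacyl-tRNA synthetases, 4 fell and 0 rose in dTAG_FL-NPM1c against NTC_DMSO, among them NARS2 (-0.37 ± 0.10) and IARS2 (-0.36 ± 0.09), which charge the tRNAs for asparagine and isoleucine. Of 17 genes of mitochondrial transcription and RNA processing, 7 fell in dTAG_FL-NPM1c against NTC_DMSO, led by FASTKD1 (-0.53 ± 0.12), PNPT1 (-0.35 ± 0.09) and TFAM (-0.35 ± 0.11), the packaging protein of mitochondrial DNA; 1 fell in each of the other 2 dTAG groups.

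Of the 15 transcripts of the mitochondrial genome, in dTAG_mCherry against NTC_DMSO 5 rose and 0 fell, led by the larger ribosomal RNA MT-RNR2 (0.39 ± 0.10), MT-CO2 (0.32 ± 0.11) and MT-ND5 (0.30 ± 0.09), and in dTAG_FL-NPM1c against dTAG_mCherry 4 fell. All genes with an MT- symbol, a wider set than the list, took 7.32% to 9.63% of counts in dTAG_mCherry and 6.83% to 7.63% in the other 9 libraries. In the remaining 4 comparisons edgeR called 0 of the 15, with 7 at an unadjusted p under 0.05 in dTAG_Cbodynull against dTAG_mCherry, 1 between the constructs and 0 in the others. Of 79 cytosolic ribosomal protein genes tested, 47 rose and 0 fell in dTAG_FL-NPM1c against NTC_DMSO (median 0.26) and 42 rose and 0 fell against dTAG_mCherry (median 0.26), comparisons in which the mitochondrial members had medians of -0.14 and -0.03. In dTAG_mCherry against NTC_DMSO edgeR called 0 of the 79, with 3 at an unadjusted p under 0.05. In dTAG_Cbodynull 7 of the 79 rose and 0 fell against NTC_DMSO (median 0.11), where 14.1% of all genes were called higher. Against dTAG_mCherry edgeR called 0 of them (median 0.11), with 20 at an unadjusted p under 0.05, where 11.9% of all genes were. Between the constructs 1 was called higher in dTAG_FL-NPM1c and 0 lower (median 0.12), where 4.82% of all genes were called higher.

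Transcription factors known to bind promoters of such genes changed in part. NRF1, the nuclear respiratory factor, fell in dTAG_mCherry against NTC_DMSO (-0.28 ± 0.08). GABPB1 fell against NTC_DMSO in dTAG_Cbodynull (-0.41 ± 0.10) and dTAG_FL-NPM1c (-0.38 ± 0.10), as did YY1 (-0.20 ± 0.07 and -0.32 ± 0.07). GABPA, the DNA-binding partner of GABPB1, fell in dTAG_FL-NPM1c (-0.31 ± 0.07), and MYC rose there (0.30 ± 0.07) and against dTAG_mCherry (0.38 ± 0.07). PPARGC1B, a coactivator, rose in dTAG_Cbodynull against NTC_DMSO (0.39 ± 0.10) and was lower in dTAG_FL-NPM1c than in dTAG_Cbodynull (-0.36 ± 0.10).

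One pair of members is transcribed head to head. MRPL46 (chr15:88459476-88467419, minus strand) and MRPS11 (chr15:88467453-88480773, plus strand) are 33 bases apart. MRPL46 stood at 29.5, 27.5 and 26.8 CPM in NTC_DMSO and 23.0, 21.9 and 23.3 CPM in dTAG_mCherry, without overlap. MRPS11 stood at 28.0, 27.0 and 29.8 and 26.2, 27.3 and 26.0 CPM, with overlap (-0.09 ± 0.08, adjusted p = 0.473). The difference between the 2 genes was not tested.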

How the data were processed

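Polyadenylated RNA of 12 libraries was sequenced as stranded libraries, per the labels' protocols. The deposited table holds raw counts per gene that the authors made; STAR, featureCounts, DESeq2 and build hg38 appear in the submitters' processing notes; annotation release, strand setting and multimapping are not given in the sources used. Of 78936 lines 6 were broken and left out. Counts were filtered with edgeR's filterByExpr, scaled by TMM factors (0.975 to 1.02) and fitted with edgeR 4.0.16 (quasi-likelihood, R 4.3.3), all 4 groups in 1 model, and p-values were adjusted over 24064 genes. CPM uses the scaled library sizes. The code was tested on simulated data. Alternatives were DESeq2 1.42.0, RLE factors, other filters, a stricter threshold, a replicate block, the 2 groups alone and single libraries left out; the GC offset, the exon-union length and the block within 2 groups were chosen after seeing the data. The GC offset covers 85.7% of genes tested. Coordinates are from GENCODE 29.

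The members and lists were chosen with earlier results of these data known. Named in each comparison were the 6 largest changes in each direction among called genes, or the smallest p up to 6 where fewer passed, genes of known role, and the highest and lowest per length; further called genes are named after their values were seen. Replicate numbers of NTC_DMSO and dTAG_Cbodynull were tried as a pairing after deviations from the group means were seen to correlate at 0.364, 0.333 and 0.437. The labels do not state a pairing. Over all 18 same-numbered pairs the correlations ran from -0.705 to 0.437. Libraries of unlike number reached 0.753 (NTC_DMSO replicate 3 with dTAG_mCherry replicate 2) and 0.633 (NTC_DMSO replicate 2 with dTAG_mCherry replicate 3). The correlations therefore do not establish a pairing. No libraries agreed within sampling noise.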

Additional observations from a re-analysis of the deposited data

Results flagged for a closer look

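The effects of the constructs against the shared dTAG_mCherry libraries differed for 2 genes, by the edgeR test of the difference itself. That test equals the comparison of dTAG_FL-NPM1c with dTAG_Cbodynull. Neither gene was called against dTAG_mCherry with either construct. The log2 fold changes against dTAG_mCherry were -0.21 (FL-NPM1c) and 0.08 (C-body null) for MRPS25, and -0.18 and 0.06 for MRPS5. For MRPS25 the effect of FL-NPM1c minus that of the C-body null construct was -0.30 on the log2 scale (SE 0.08, adjusted p = 0.0244), and for MRPS5 it was -0.24 (SE 0.07, adjusted p = 0.0255). These are 2 of the 78 genes, where 9.68% of all genes were called in that comparison, and of the 6 fits that left out 1 library MRPS25 lost the call in 4 and MRPS5 in 5. In both genes the 3 dTAG_FL-NPM1c libraries lay below the 3 dTAG_Cbodynull libraries.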

How the results depend on the processing

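Genes named in a comparison for the size of their change or their p kept the direction of their fold change under all alternative runs. The direction was not followed for the other named genes. The medians over the 78 genes in the comparisons with dTAG_mCherry, and the large minus small differences in these and in dTAG_FL-NPM1c against NTC_DMSO, changed sign under at least 1 setting; all of these lie near 0 and carry no test. At an adjusted p under 0.01 the calls numbered 3 in dTAG_mCherry against NTC_DMSO, 5 in dTAG_FL-NPM1c against NTC_DMSO, 1 in dTAG_Cbodynull against NTC_DMSO, and 0 in dTAG_FL-NPM1c against dTAG_mCherry and against dTAG_Cbodynull. DESeq2 called 14, 27 and 13 in dTAG_mCherry against NTC_DMSO, dTAG_FL-NPM1c against NTC_DMSO and dTAG_FL-NPM1c against dTAG_mCherry, and 1 in dTAG_Cbodynull against dTAG_mCherry. In dTAG_mCherry against NTC_DMSO RLE factors gave 12 and no filter 12; no filter gave 14 in dTAG_FL-NPM1c against dTAG_mCherry and 4 between the constructs. With 2 groups alone the counts were 0 (dTAG_mCherry against NTC_DMSO), 3 (dTAG_FL-NPM1c against dTAG_mCherry), 11 (between the constructs), 28 (dTAG_FL-NPM1c against NTC_DMSO) and 5 (dTAG_Cbodynull against NTC_DMSO). Apart from some of the 2-group fits above, the share of all genes called under the same setting is not given here. A rise or fall in these counts therefore cannot be read as particular to the 78 genes. The cause of these shifts was not tested.

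With the replicate number as a block in the fit of all groups the counts were 6, 2, 0, 1, 11 and 2, in the order dTAG_mCherry against NTC_DMSO, dTAG_FL-NPM1c and dTAG_Cbodynull against dTAG_mCherry, dTAG_FL-NPM1c against dTAG_Cbodynull, and dTAG_FL-NPM1c and dTAG_Cbodynull against NTC_DMSO. Of 12 libraries 2 correlated best with their own number. The labels state no pairing, also not for NTC_DMSO with dTAG_Cbodynull. The fit of those 2 groups alone with the block gave 26. For the block in the fit of all groups, the share of all genes called is likewise not given.

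With the GC offset, chosen after seeing the data, the counts in that order were 21, 6, 2, 10, 25 and 13, the median in dTAG_FL-NPM1c against NTC_DMSO was -0.0715, and the large minus small medians were -0.0332 (dTAG_mCherry against NTC_DMSO), -0.00973 and -0.0257 (dTAG_FL-NPM1c and dTAG_Cbodynull against dTAG_mCherry) and -0.0508 (dTAG_FL-NPM1c against NTC_DMSO). Leaving out single libraries gave, in the same order, counts of 5 to 15, 0 to 33, 0 to 5, 0 to 3, 5 to 23, 1 to 9. The medians ran -0.13 to -0.06, -0.100 to 0.0083, -0.01 to 0.06, -0.12 to -0.04, -0.18 to -0.10, -0.12 to -0.05, and the large minus small medians -0.0796 to -0.0124, 0.05 to 0.10, 0.01 to 0.07, 0.00 to 0.04, -0.0245 to 0.0439, -0.06 to -0.03. Genes named for the size of their change or their p kept their side of the threshold in 146 of their fits without 1 library. They lost the call in 63 and gained it in 7. Under the other settings these numbers were 271, 42 and 23. With 3 libraries a group and an SE near 0.09, changes the size of most medians could not be called for single genes.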
